A study of Mus musculus with 10 samples.

Results

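The cytosolic ribosomal protein genes were described in serum-starved NIH3T3 cells, an established mouse fibroblast line, with and without the DREAM subunit Lin37. Members were all genes of the RPKM matrix whose GENCODE M21 symbol begins with Rpl or Rps and a digit, or is *Rplp0*, *Rplp1*, *Rplp2* or *Rpsa*, and whose type is protein coding, with the S6 kinases left out. This gave 92 of the 45232 genes in the matrix, 57 of the large subunit, 34 of the small subunit and *Rps19bp1*, whose product binds Rps19 and is no ribosomal protein. The 10 libraries came from 2 knockout clones, each grown from a single cell: clone 411-27, with InDels in exon 4 of *Lin37*, and clone 632-2, with InDels in exon 6. All cells of both genotypes carried a doxycycline-inducible episome, selected with hygromycin, that expressed either luciferase (called KO) or wild-type Lin37 (called rescue). The rescue is thus re-expression in a knockout clone and not an unedited cell. In the authors' methods, expression from these episomes was induced with doxycycline, and the induced cells were sorted by their GFP. Each clone contributed 2 biological replicates of KO and 2 of rescue. In the exon 6 clone library 3 of each genotype was a technical replicate of library 2. Serum was withheld for 60 h before RNA extraction.

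A ribosome holds one copy of nearly every ribosomal protein, so cells make these proteins in matched amounts. Their mRNAs begin with a run of pyrimidines after a C, the 5′ terminal oligopyrimidine (TOP) motif, through which mTOR signalling adjusts their translation when growth factors or nutrients change. Quiescent fibroblasts are known to hold back translation of these mRNAs, largely without destroying them. The genes have also given rise to many intronless copies, made when processed mRNA was copied back into the genome, and short reads from an mRNA and from such a copy can be hard to tell apart.

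The coding starts of 3 pairs of members are shown because they set how far reads can be assigned to one gene. The first 90 coding bases are from the GENCODE M21 transcripts, 5′ to 3′, with capitals at bases that differ within a pair.
Rps27: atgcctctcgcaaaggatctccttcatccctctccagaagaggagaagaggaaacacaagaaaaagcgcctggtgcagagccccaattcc
Rps27rt: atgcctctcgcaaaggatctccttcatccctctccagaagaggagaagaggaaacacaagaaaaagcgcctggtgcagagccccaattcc
Rpl36a: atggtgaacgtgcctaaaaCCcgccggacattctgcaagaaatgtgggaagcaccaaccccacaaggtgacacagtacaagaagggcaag
Rpl36a-ps1: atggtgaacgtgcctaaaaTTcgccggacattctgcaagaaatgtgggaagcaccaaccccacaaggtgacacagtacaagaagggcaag
Rpl39: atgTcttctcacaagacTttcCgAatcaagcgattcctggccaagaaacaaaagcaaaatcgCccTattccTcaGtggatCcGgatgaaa
Rpl39l: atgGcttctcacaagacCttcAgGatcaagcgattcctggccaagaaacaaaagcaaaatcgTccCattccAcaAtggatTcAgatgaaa
*Rps27* (chromosome 3) and the intronless *Rps27rt* (chromosome 9) had no difference over their 252 coding bases. *Rpl36a* (chromosome X) and *Rpl36a-ps1* (chromosome 14) differed at 7 of 318 bases. The paralogues *Rpl39* (chromosome X) and *Rpl39l* (chromosome 16) differed at 23 of 153 bases.

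The starts of *Rps27* and *Rps27rt* are shown from 15 bases before to 15 bases from the annotated start, since this is where an mRNA and a copy of it part. They are from RefSeq (GRCm38.p6), with capitals at the pyrimidine run that begins at the start.
Rps27 (chr3:90213634-90213663, minus strand): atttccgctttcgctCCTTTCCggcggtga
Rps27rt (chr9:114982725-114982754, minus strand): agaacttatcccttgCTTTCCggcggtgac
From its second transcribed base *Rps27* matched *Rps27rt* from the first for 38 bases without a break, whereas 4 of the 15 bases before the starts were the same. Both annotated starts held the pyrimidine run.
Of the 92 members, 66 had at least 1 promoter window of 300 bases in the RefSeq table, with 78 windows in all. A C followed by at least 4 pyrimidines stood exactly at the annotated start in 14 of these 78 windows (17.9%), against 2.5% of all 32851 windows of that length. Such a run was also sought at every position of a short stretch on both sides of the annotated start, a looser match. It began there in 42 of the 78 windows (53.85%), against 30.72% of all windows. *Rpl38*, *Rps6* and *Rpl14* are shown as examples with the run exactly at the start.
Rpl38 (chr11:114668565-114668594, plus strand): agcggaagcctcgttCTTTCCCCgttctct
Rps6 (chr4:86857353-86857382, minus strand): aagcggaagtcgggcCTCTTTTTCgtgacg
Rpl14 (chr9:120571502-120571531, plus strand): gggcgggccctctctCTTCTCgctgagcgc
On either strand, CCGGAAG was in 34.6% of the member windows and 8.86% of all windows, and TCTCGCGA in 15.4% and 0.995%. TTTGAA, the core of the CHR element to which DREAM binds, was in 6.41% of member windows and 17.9% of all windows. TTTNGCGC was in 1 of the 78 windows (1.28%), against 1.38% of all windows. TTTNGCGC, which matches sites of E2F factors, and TCTCGCGA share the letters CGC, so that their matches can overlap, and a match here is only a description of these windows.

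The targeted gene followed the labels. *Lin37*, which encodes the DREAM subunit, lay between 0.27 and 0.42 RPKM in the 5 KO libraries and between 2.12 and 5.11 RPKM in the 5 rescue libraries, without overlap. All levels here are RPKM after rescaling each library by its median ratio over 8523 genes. The rescaling factors ran from 0.324 to 2.70. Among nuclear protein-coding genes the 10 of highest mean were led by *Gm10800* and *Gm10801*. These 10 took between 1.68% and 74.8% of the RPKM summed over all genes of a library. Of the 9 fibroblast markers, *Col1a1* was at 98.7 to 324 RPKM, but *Thy1* was far lower, above all in the exon 4 clone, with its levels given below. Between the clones 3 of the 9 were called higher and 2 lower by limma, against 6.84% and 6.71% of all genes. Of 10 markers of other cell types, 8 were at or below 0.18 RPKM in every library, among them *Epcam*, *Ptprc*, *Pecam1* and *Alb*. The other two were *Cd68*, at 0.50 to 1.44 RPKM, and *Cdh1*, at 0.21 to 0.47 RPKM in the exon 4 clone and 0.02 to 0.15 RPKM in the exon 6 clone (log2 -0.59, SE 0.12, adjusted p = 0.019 in limma between clones). *Cd68* had a log2 change of 0.49 (SE 0.10, adjusted p = 0.15 in limma) between KO and rescue in the exon 6 clone. Summed over the 10 markers the level ran from 1.25 to 1.65 RPKM in KO and from 0.783 to 1.54 RPKM in rescue, and its part in the results was not tested. Read totals were not in the files, so the depth is unknown and no counting interval is given.

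Ribosomal protein genes spanned a range of 186-fold in level. In 88 members the mean over the 8 biological replicates reached 0.1 RPKM, and these ran from 0.541 RPKM for *Rps29* to 101 RPKM for *Rpl8*, with a median of 4.10 RPKM. Large-subunit genes had a median of 4.23 RPKM (n = 53) and small-subunit genes one of 3.53 RPKM (n = 34), while all 11351 nuclear protein-coding genes that reached the same minimum had a median of 1.11 RPKM. The 4 members below 0.1 RPKM were *Rpl3l* and *Rpl10l*, paralogues known from striated muscle and testis, and *Rpl9-ps1* and *Rpl36-ps4*.

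*Rpl8*, a large-subunit protein near the peptidyl transferase centre, was highest. The exon 4 clone gave 77.4 and 106 RPKM as KO and 97.2 and 111 as rescue. In the exon 6 clone it lay at 104, 107 and 109 RPKM in KO and at 103, 96.6 and 104 in rescue. The groups overlapped, and the lowest value was exon 4 KO library 1. It was followed by *Rplp1* (83.8 RPKM), *Rps27rt* (53.6), *Rpl41* (53.3) and *Rps12-ps3* (48.2). At the other end were *Rps29* (0.541), *Rpl35a* (0.575), *Rpl22l1* (0.670), *Rpl9* (0.676) and *Rps13* (0.742). *Rpl22l1* is a paralogue of *Rpl22*, but the other four encode core proteins present in every ribosome.

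Most members have close relatives in sequence elsewhere in the genome. For each member, stretches of 31 coding bases were searched in all annotated transcripts, and a gene holding at least 50% of them was called a copy. Taken over all other genes together, every such stretch occurred elsewhere for 34 members, and at least 90% did for 57. For *Rpl21* all occurred elsewhere, yet no single copy held more than 86.2% of them. The members fell into 87 families, 65 of which held in total 237 copies that are not members, and 229 of these copies were annotated as pseudogenes. In families with such copies the members carried a median of 4.47% of the summed RPKM, and under 10% in 47 of the 65. *Rps29* held 0.499% of its family, *Rpl35a* 0.930% and *Rps13* 1.45%. The pseudogene *Rpl38-ps2* was listed at 298 RPKM beside 7.80 for *Rpl38*, and *Rps6-ps4* at 174 RPKM beside 16.7 for *Rps6*.

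The plot of families sets members alone beside members with their copies. The upper quartile was 5.70 times the lower among the 88 members and 3.40 times among the 83 families, while the highest over the lowest level was 186 and 397. Among the 73 members with a copy the median level was 3.68 RPKM, and among the 15 without one it was 9.77 RPKM. *Rpl8*, *Rpl4*, *Rpl41*, *Rps15* and *Rps3* were without a copy and lay at 9.77 to 101 RPKM. *Rps21* and *Rps19*, also without a copy by this threshold, were at 0.899 and 1.04 RPKM, yet 75.3% of the coding stretches of *Rps21* occurred in some other gene. *Rps27* was at 1.37 RPKM and the identical *Rps27rt* at 53.6, and *Rpl9* was at 0.676 RPKM beside 39.3 for *Rpl9-ps6*. How reads were divided between a gene and its copies was not tested, so a low level of a member with copies is not a measure of its mRNA.

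**Figure D1:**
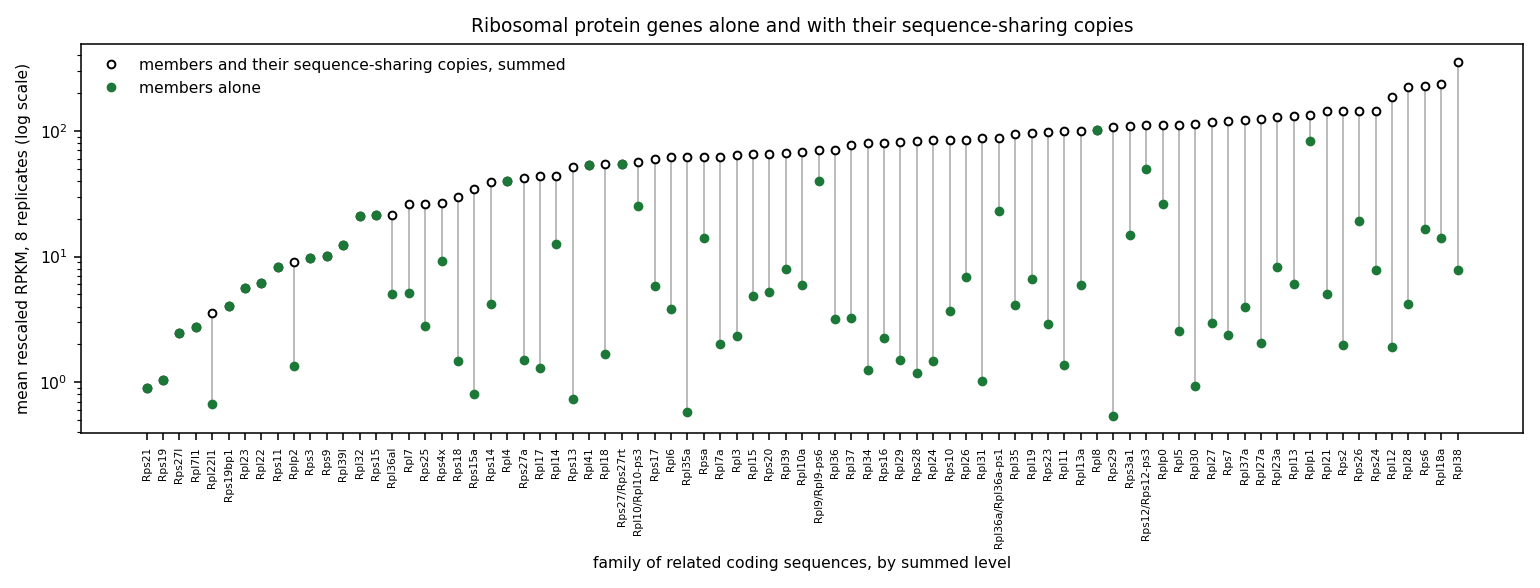
Mean rescaled RPKM over 8 replicates on a log axis for each family of related coding sequences that reached 0.1 RPKM, ordered by the summed level, with 81 of the 83 families drawn. Filled points give the members alone and open points the members with their copies; for Rpl38 the members hold 7.80 RPKM of a family at 357 RPKM, while for Rpl8 both points coincide at 101 RPKM.

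Between replicates the ribosomal protein genes varied less than they did between one another. In these 88 genes the coefficient of variation over the 8 replicates had a median of 19.2%, from 5.84% to 38.3%, and the highest library was 1.25 to 3.54 times the lowest. Exon 4 KO library 1 stood apart: the members' log2 levels lay at a median of -0.22 from their own means, and 16 of 88 were above it. In the other 9 libraries this median lay between -0.07 and 0.11, and KO and rescue libraries were interspersed. As a share of the summed RPKM of nuclear protein-coding genes with the 10 highest genes left out, members took 2.91% ± 0.44 in KO and 2.96% ± 0.11 in rescue (SD, n = 4). With those genes kept, the shares were 1.17% ± 0.74 and 0.333% ± 0.093, and the 10 genes moved with this difference. Their part in it was not tested. With them kept, 2 technical replicates of 1 sample gave 0.336% and 2.80% in the exon 6 KO. In the exon 6 rescue such a pair gave 0.121% and 0.684%.

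**Figure D2:**
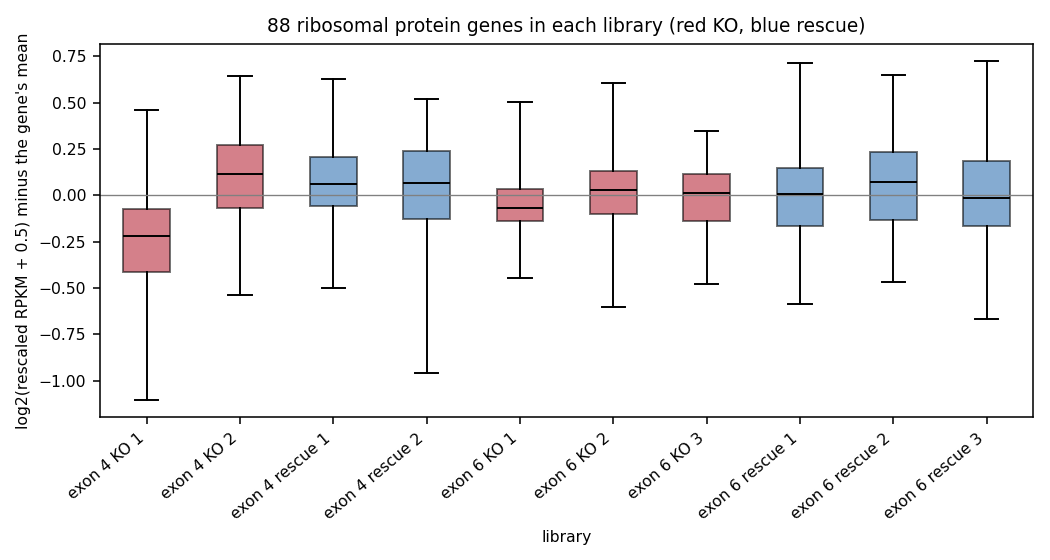
Log2 of rescaled RPKM plus 0.5 minus each gene's mean over the 10 libraries, for the 88 members at 0.1 RPKM or more. Boxes give quartiles and median and whiskers the whole range; exon 4 KO 1 has the lowest median at -0.22 and the other 9 libraries lie between -0.07 and 0.11.

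Loss of Lin37 changed no ribosomal protein gene past the threshold. In the comparison of KO with rescue over both clones, with clone as a covariate, 0 of 88 members passed an adjusted p of 0.05 in limma with Benjamini-Hochberg adjustment. Of all 16866 genes tested, 1.61% were called higher and 0.083% lower. At an unadjusted p under 0.05, 0 members were higher and 5 lower (*Rpl23a*, *Rpl7*, *Rpl36a*, *Rpl36* and *Rps29*), against 5.06% and 3.72% of all genes. The lowest adjusted p of a member was 0.27, for *Rpl7*. The median log2 change was -0.086 over members and -0.034 over all genes, and 22 of 88 members had a change above 0, as did 41% of all genes. In RPKM as deposited, without rescaling, 88 of 88 members and 95.8% of all genes had a change above 0, with medians of 0.81 and 0.64, so that the direction of a member here is relative to the other genes. Without exon 4 KO replicate 1 the median over members was -0.0079 and 40 members were above 0. Every member's 95% confidence interval lay within a log2 change of 1 in either direction, and 83 of the 88 intervals included 0.

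*Rpl23a*, at the rim of the exit tunnel, had the lowest change (log2 -0.41, SE 0.17, adjusted p = 0.53 in limma). It gave, in the exon 4 clone, 4.85 and 7.61 RPKM as KO against 11.3 and 8.64 as rescue, and in the exon 6 clone 7.66, 9.67 and 6.77 as KO against 8.29, 11.4 and 7.89 as rescue. With technical replicates averaged, its 4 KO values were all below its 4 rescue values. Its span on the chromosome overlaps that of *Tlcd1*. *Rpl7*, a large-subunit protein, gave, in the exon 4 clone, 3.54 and 4.28 RPKM as KO against 4.45 and 5.61 as rescue, and in the exon 6 clone 5.03, 4.59 and 5.02 as KO against 6.76, 6.54 and 5.92 as rescue. KO was below rescue within each clone, but the groups overlapped across clones (log2 -0.34, SE 0.11). *Rpl36a* followed with -0.33 (SE 0.14). KO and rescue replicates did not overlap for *Rpl23a* and *Rpl36*, 2 of 88 members (2.27%), against 4.51% of all genes.

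The largest rises were those of *Rpl9* (log2 0.23, SE 0.14), *Rps27* (0.23, SE 0.13) and *Rps21* (0.20, SE 0.18), and none passed. *Rps27* gave, in the exon 4 clone, 1.26 and 1.70 RPKM as KO against 1.13 and 1.65 as rescue, and in the exon 6 clone 1.52, 1.67 and 1.48 as KO against 1.20, 1.01 and 0.87 as rescue. The groups overlapped in the exon 4 clone. The change of *Rps27rt*, whose coding sequence is the same, was 0.05 (SE 0.14).

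**Figure D3:**
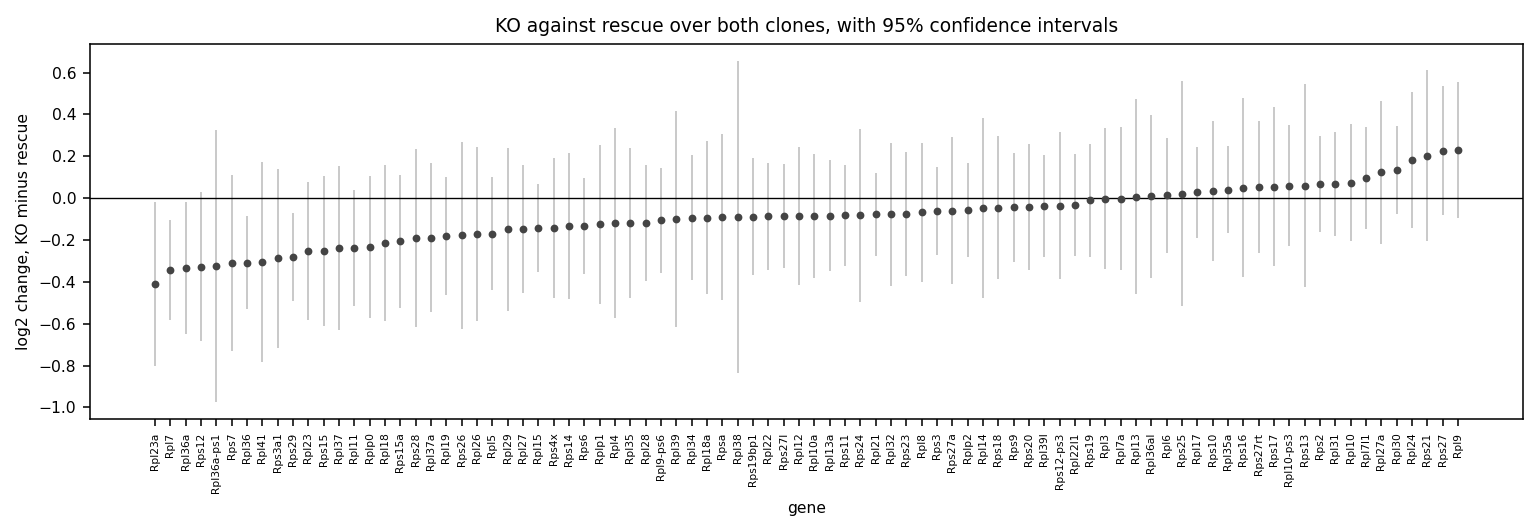
Log2 change of KO minus rescue over both clones for 86 of the 88 members tested, ordered by size, with 95% confidence intervals from limma on log2(RPKM + 0.5). The estimates run from -0.41 (Rpl23a) to 0.23 (Rpl9), and most intervals include 0.

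By role, 0 members were called in each list. The 4 stalk genes, which recruit translation factors, had changes from -0.23 to -0.06. *Rplp0* was at 24.3 ± 3.9 RPKM in KO and 28.6 ± 3.2 in rescue, and *Rplp1* at 80.5 ± 15.6 and 87.0 ± 10.4 (SD, n = 4). *Rpl5* and *Rpl11*, which with the 5S rRNA can bind Mdm2, had changes of -0.17 (SE 0.12) and -0.24 (SE 0.12). The 7 genes of the exit tunnel had a median of -0.12, with 1 above 0. The 5 genes of the mRNA path and decoding centre had a median of -0.060, with *Rps15* at -0.25 (SE 0.16) and *Rps2* at 0.07 (SE 0.10). *Rps6*, phosphorylated downstream of mTOR, was at 15.9 ± 1.4 RPKM in KO and 17.5 ± 1.6 in rescue, with a change of -0.13 (SE 0.10). *Rps4x* and *Rpl10* on the X chromosome differed by -0.14 (SE 0.15) and 0.07 (SE 0.12). The 6 paralogues that reached the minimum had a median of -0.013, and *Rpl39l* was at 12.3 ± 1.4 and 12.6 ± 1.0 RPKM, above its counterpart *Rpl39* at 7.78 ± 2.61 and 8.12 ± 1.29. With copies summed this order turned, since *Rpl39* held 11.9% of a family at 67.0 RPKM and *Rpl39l* had no copy.

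Subunits and copies gave similar medians. The 53 large-subunit members had a median change of -0.090 and the 34 small-subunit members one of -0.079. The 15 members without a copy had a median of -0.083 (2 above 0) and the 231 copies tested that are not members one of -0.079. None of these copies was called by limma, against 1.61% of all genes called higher and 0.083% lower. At an unadjusted p under 0.05, 0 of them were higher and 4 lower, against 5.06% and 3.72% of all genes. With copies summed into their families, 0 of 83 families passed, against 1.67% of all features called higher and 0.0842% lower, and the median was -0.087.

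Each clone was also compared on its own. In the exon 6 clone 0 of 88 members passed, against 1.24% of all genes called higher and 0.0654% lower, with 2 members higher and 5 lower at an unadjusted p under 0.05 (7.31% and 4.52% of all genes) and a median of -0.070. The lowest changes were those of *Rpl29* (-0.41, SE 0.12), *Rpl37a* (-0.37, SE 0.21) and *Rpl7* (-0.37, SE 0.11), and the highest those of *Rps27* (0.38, SE 0.12), *Rps13* (0.35, SE 0.17) and *Rps16* (0.32, SE 0.18). Leaving out 1 replicate of this clone at a time, the change ran from -0.67 to -0.07 for *Rpl37a*, from 0.15 to 0.55 for *Rps13* and from 0.08 to 0.55 for *Rps16*. In the exon 4 clone 0 of 88 members passed, and 0% of all 18751 genes did in either direction by limma, with 0 members higher and 3 lower at an unadjusted p under 0.05 (2.27% and 1.82% of all genes). The median there was -0.12, and 0.082 without KO replicate 1. In this clone *Rpl23a* had the lowest change (-0.65, SE 0.27), followed by *Rps12* (-0.59, SE 0.23) and *Rpl36a-ps1* (-0.58, SE 0.48), and the highest was that of *Rpl24* (0.44, SE 0.21), *Rpl10-ps3* (0.27, SE 0.20) and *Rpl9* (0.24, SE 0.27). The difference of the change between the clones was tested as an interaction: 0 of 88 members passed, as did 0% of all genes by limma, with 2 members higher and 0 lower at an unadjusted p under 0.05 (2.57% and 1.49% of all genes). The largest differences were those of *Rps15a* (0.58, SE 0.20), *Rps13* (0.58, SE 0.41) and *Rps12* (0.53, SE 0.27) upwards and of *Rpl29* (-0.53, SE 0.31), *Rpl24* (-0.51, SE 0.24) and *Rpl38* (-0.50, SE 0.68) downwards.

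In the wider translation machinery *Xpo1* was called. Of 23 other TOP mRNAs, 48 translation factors and 77 mitochondrial ribosomal protein genes, 0 passed between KO and rescue over both clones, with medians of -0.087, -0.053 and -0.038. Of 77 ribosome biogenesis factors 1 passed as higher, beside 1.61% of all genes. *Xpo1*, the export receptor that carries pre-ribosomal subunits and many other cargoes out of the nucleus, was higher in KO (log2 0.90, SE 0.097, adjusted p = 0.0017 in limma). It gave, in the exon 4 clone, 4.06 and 4.15 RPKM as KO against 2.10 and 2.23 as rescue, and in the exon 6 clone 3.95, 3.40 and 3.96 as KO against 1.47 to 1.85 as rescue, without overlap.

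Technical replicates of 1 sample differed in many ribosomal protein genes. Between the technical replicates of the exon 6 rescue the absolute log2 difference had a median of 0.33 over members and 0.23 over all genes, and between those of the exon 6 KO 0.18 and 0.17. For genes averaging 1 RPKM or more, the medians between technical replicates were 0.23 in the rescue and 0.18 in the KO. The absolute change between KO and rescue, which averages 4 replicates on each side, had a median of 0.096, and 0.097 over all genes. In library 3 of the rescue *Rpl38* was higher than in library 2 by 1.19, and *Rpl37* differed by -1.13. In the KO the same differences were 0.46 and -0.26. Over the 88 members the differences of both pairs had a Pearson correlation of 0.66 (Spearman 0.65), a description across genes that share libraries. The leading axis of the members' variation held 40.7% of it. Its largest library weights were those of exon 4 KO 1 (0.48) and 2 (-0.41), exon 4 rescue 2 (-0.40) and exon 6 rescue 2 (-0.40). Libraries 3 and 2 had weights of 0.35 and -0.40 in the exon 6 rescue, and of 0.24 and -0.18 in the exon 6 KO. Over the 10 libraries the weight and the log2 rescaling factor had a Pearson correlation of 0.89 (Spearman 0.84), whose part in the axis was not tested. *Rpl37* and *Rpl4* lay towards one end of the axis and *Rpl38* and *Rpl27* at the other. *Rpl38* gave 7.91 and 5.74 RPKM as KO against 10.3 and 3.40 as rescue in the exon 4 clone, and 10.3, 4.50 and 6.38 as KO against 10.9, 4.98 and 12.1 as rescue in the exon 6 clone, so that high and low libraries occurred in every group.

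**Figure D4:**
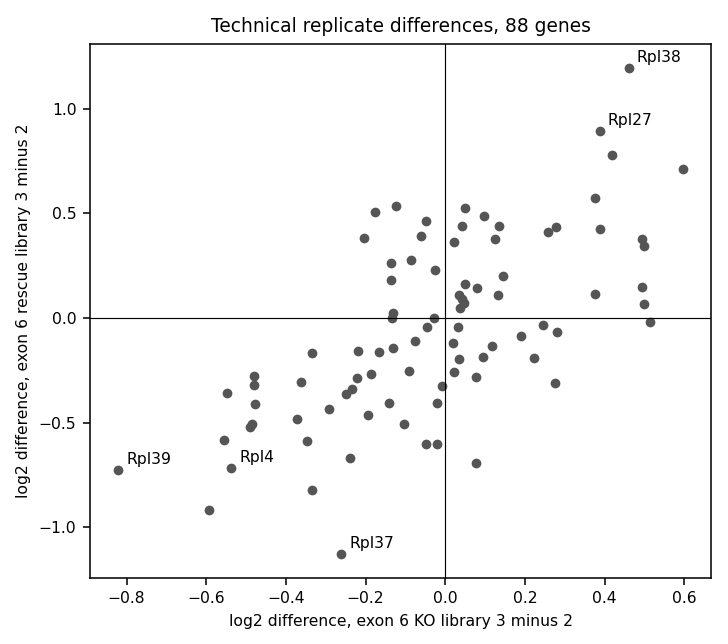
Log2 difference between library 3 and library 2, technical replicates of the same sample, for the exon 6 KO (horizontal axis) and the exon 6 rescue (vertical axis), for 88 members. Rpl38 lies at 0.46 and 1.19 and Rpl37 at -0.26 and -1.13, and the points follow a common direction (Pearson 0.66).

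Between the clones 2 ribosomal protein genes differed. Comparing the exon 6 clone with the exon 4 clone, with genotype as a covariate, 0 members were called higher and 2 lower by limma, against 6.84% and 6.71% of all genes, and 12 members were higher and 8 lower at an unadjusted p under 0.05 (13.4% and 17.4% of all genes). The median over members was 0.010 and over all genes -0.048, and 47 of 88 members were above 0. The replicates of the clones did not overlap for 8 members (9.09%) and for 20.5% of all genes. As each clone is 1 cell's progeny, the edited exon and other differences between clones cannot be told apart.

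*Rpl7a*, a large-subunit protein whose introns host small nucleolar RNAs, was lower in the exon 6 clone (log2 -0.63, SE 0.15, adjusted p = 0.029 in limma). The exon 4 clone gave 2.14 and 2.75 RPKM as KO and 2.93 and 2.38 as rescue, against 1.29, 1.91 and 1.70 as KO and 1.11, 1.73 and 1.77 as rescue for the exon 6 clone. The 4 exon 4 libraries were above all 6 exon 6 libraries. *Rpl35a*, also of the large subunit, was lower as well (-0.40, SE 0.091, adjusted p = 0.024 in limma). It lay at 0.72, 0.74, 0.74 and 0.69 RPKM in the exon 4 clone, at 0.44, 0.49 and 0.41 in the KO of the exon 6 clone, and at 0.33, 0.30 and 0.67 in its rescue, where the last 2 values are technical replicates of 1 sample. *Gm17106* overlaps its span. The call of *Rpl7a* was lost without any one of 5 replicates (KO 2 and rescue 1 and 2 of the exon 4 clone, KO 1 and rescue 1 of the exon 6 clone), with adjusted p between 0.051 and 0.098, and also with no minimum level (0.14). The call of *Rpl35a* was lost without KO 2 or rescue 1 of the exon 4 clone, or KO 1, KO 2 or rescue 1 of the exon 6 clone (0.051 to 0.080). Both genes hold a small part of their families, 3.23% and 0.930%.

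*Rps24* of the small subunit had the largest rise, which did not pass (0.63, SE 0.18, adjusted p = 0.054 in limma). It lay at 4.13, 7.75, 5.70 and 6.85 RPKM in the exon 4 clone and between 7.99 and 12.2 RPKM in the 6 libraries of the exon 6 clone, with a median of 9.20. *Rps26* (0.58, SE 0.20) and *Rpl14* (0.50, SE 0.19) followed, and the lowest members after *Rpl7a* were *Rpl37* (-0.50, SE 0.17) and *Rpl35* (-0.42, SE 0.16). Without exon 4 KO replicate 1, the library that stood apart, 0 of 88 members were called higher and 9 lower, against 7.22% and 10.7% of all genes. Without exon 4 KO replicate 2 it was 2 and 0, against 5.06% and 4.92%.

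Summing each member with its copies gave other genes. Of 83 families, 4 were called higher in the exon 6 clone and 0 lower, against 7% and 6.92% of all features. The *Rps24* family rose by a log2 of 0.93 (SE 0.23, adjusted p = 0.030 in limma). The exon 4 clone gave 63.7 and 139 RPKM as KO and 96.6 and 109 as rescue, against 191, 221 and 161 as KO and 194, 197 and 162 as rescue for the exon 6 clone. All exon 6 libraries were above all exon 4 libraries, and most of the level was that of *Rps24-ps3* on the X chromosome, at 129 RPKM on average. The *Rpl14* family (0.39, SE 0.10, adjusted p = 0.040) and the *Rpl37a* family (0.61, SE 0.17, adjusted p = 0.0497) were higher too. The *Rplp2* family was also called (0.46, SE 0.097, adjusted p = 0.018), but 7.75 of its 9.09 RPKM belonged to *Wdr89*, a protein-coding gene with a transcript that holds 80.3% of the *Rplp2* coding stretches. As families, *Rpl7a* (-0.17, SE 0.11) and *Rpl35a* (-0.53, SE 0.19) were not called.

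**Figure D5:**
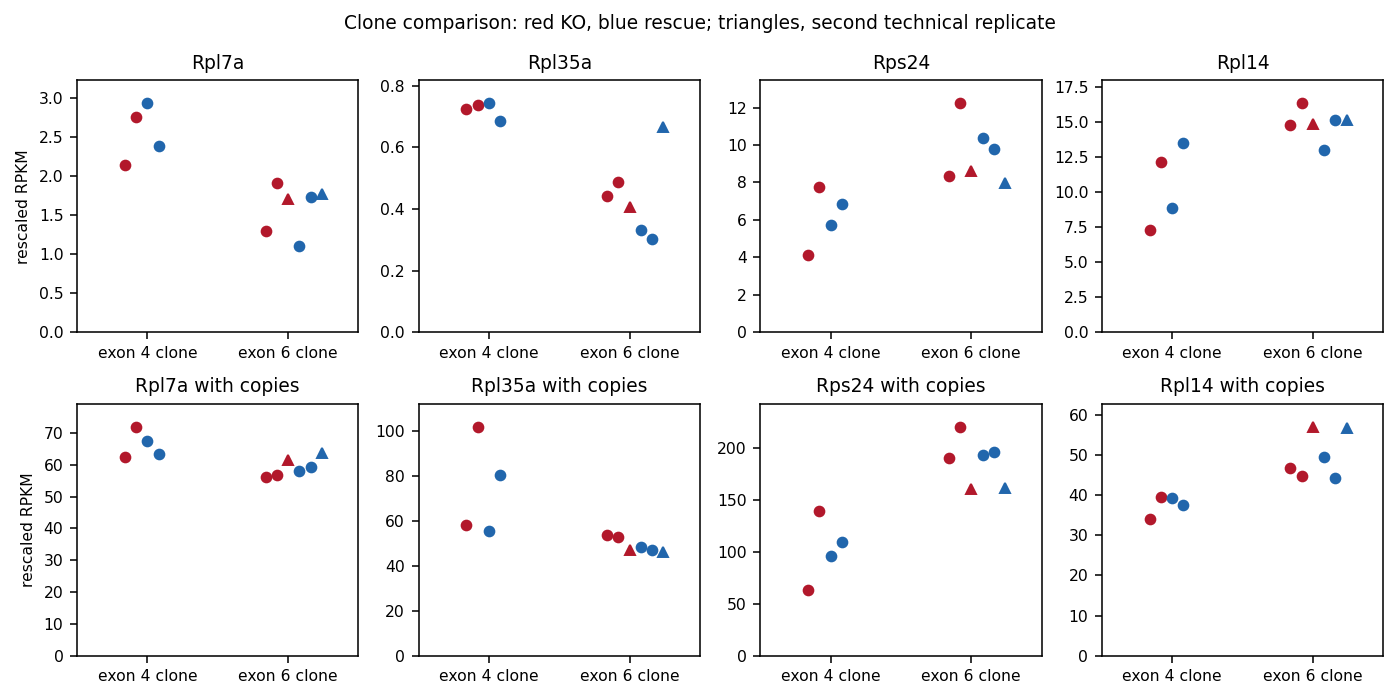
Rescaled RPKM in each library of the exon 4 and exon 6 clones for 4 genes alone (upper row) and summed with their copies (lower row), each axis starting at 0. Rpl7a alone lies above 2.1 RPKM in the exon 4 clone and below 2 RPKM in the exon 6 clone, and the Rps24 family lies between 63.7 and 139 RPKM against 161 to 221 RPKM.

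In the same comparison of clones other lists held calls too, to be read against the 6.84% of all genes called higher and 6.71% called lower. Of 77 mitochondrial ribosomal protein genes 8 were higher and 4 lower, including *Mrpl34* (0.75, SE 0.16) and *Mrps34* (0.61, SE 0.12), and *Mrpl39* (-0.93, SE 0.15) and *Mrps6* (-0.55, SE 0.088). Of 48 translation factors 2 were higher, *Eif1b* (0.69, SE 0.11) and *Eef1b2* (0.51, SE 0.11), and 5 lower, among them *Eif5* (-0.62, SE 0.092) and *Eif4a2* (-0.57, SE 0.12). Of 77 ribosome biogenesis factors 5 were higher, among them *Gnl3l* (0.67, SE 0.13) and *Rrs1* (0.55, SE 0.10), and 5 lower, among them *Dcaf13* (-0.65, SE 0.095) and *Mdn1* (-0.62, SE 0.16). Of 23 other TOP mRNAs 3 were higher, among them *Hnrnpa1* (0.93, SE 0.22) and *Nap1l1* (0.62, SE 0.17), and 0 lower. Whether these shares differ from that of the cytosolic ribosomal protein genes was not tested. Fibroblast markers moved between the clones too, with 3 of 9 higher and 2 lower. *Thy1* lay at 0.53 to 1.83 RPKM in the exon 4 clone and 7.41 to 9.49 RPKM in the exon 6 clone, and the part of this in the differences above was not tested.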

How the data were processed

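RNA from serum-starved NIH3T3 cells was depleted of rRNA and sequenced as paired reads. The authors trimmed reads with cutadapt, aligned them to mm10 with a split-read aligner, counted genes against an earlier release of GENCODE and deposited RPKM values for 10 libraries. Before their own test of differential expression they took out entries for GSAT_MM repeats, whereas no repeat entries were taken out here. Their counts were not used here, and how reads matching several genes were shared is not given in the sources used here. No column was left without a sample. Gene names and types came from GENCODE M21, which matched 44585 of 45232 identifiers. Between 22.6% and 27.8% of low values of short RNAs were whole multiples of the commonest step (within 0.02), so whole reads were not recovered. RPKM were divided by median-of-ratios factors over 8523 genes that averaged 1 RPKM or more and were above 0 in all libraries. Both technical replicates of a sample entered as their mean. Genes averaging 0.1 RPKM or more were fitted with limma 3.58.1 (R 4.3.3) with a mean-variance trend, on log2(RPKM + 0.5), with Benjamini-Hochberg adjustment and a threshold of 0.05, so that fold changes of low genes are understated; the script was tested on simulated data. KO was compared with rescue over both clones, within each clone and as an interaction, and the clones with each other. Nothing in the labels ties replicates to separate thawings or days, so p-values measure the spread between these samples.

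Members and gene lists were chosen with earlier results of these data known. Named genes were those in role lists, the 5 highest and 5 lowest in level, called members, the 3 largest changes in each direction, and in other lists the 2 largest calls in each direction. Summing members with their copies was chosen after the data were seen. Alternatives covered the pseudocount, minimum level, scaling, technical replicates, a replicate block, the trend and each replicate left out. The study's strandedness was not used, and 30 members overlap another gene, small RNAs left out. Results of 2 members are not reported by name here.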

Additional observations from a re-analysis of the deposited data

How the results depend on the processing

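Between KO and rescue 0 members were called under every alternative run except RPKM as deposited in the exon 6 clone, with 74 of 88 called higher (61.4% of all genes). As deposited, the median change of all genes was 0.64 over both clones, 0.69 in the exon 6 clone, 0.57 in the exon 4 clone and 0.51 between clones, and that of members 0.81, 0.84, 0.77 and 0.80. In the exon 6 clone quantile scaling gave a median of -0.043. As deposited, 88 of 88 members were above 0 in KO against rescue and between clones, so that 66 members reversed over both clones, 59 in the exon 6 clone, 58 in the exon 4 clone and 41 between clones, among them each role-list gene with a change below 0. Of the genes named for their changes, the reversals were those of *Rpl23a* (0.56; 0.30 in exon 4), *Rpl36a* (0.36), *Rpl7* (0.60; 0.60 in exon 6), *Rpl29* (0.33), *Rpl37a* (0.53), *Rps12* (0.25) and *Rpl36a-ps1* (0.42), and between clones those of *Rpl7a* (0.12), *Rpl35a* (0.11), *Rpl35* (0.38), *Rpl37* (0.21), *Dcaf13* (0.22), *Eif4a2* (0.32), *Eif5* (0.26) and *Mrps6* (0.35). Members called between clones were 11 higher and 0 lower as deposited (15.2% and 1.6% of all genes), 3 and 1 with a minimum of 1 RPKM (12.5% and 11.7%), 4 and 2 with technical replicates separate (8% and 9.61%), 0 and 1 with no minimum (1.12% and 1.1%), and 4 and 0 with copies summed (7% and 6.92%). The members' share was 0.362% in KO and 0.214% in rescue of the RPKM of all genes, and 2.91% and 2.96% of that of nuclear protein-coding genes without the 10 highest. Leaving out 1 replicate each, the median ranged from -0.16 to -0.0079 over both clones and from -0.11 to -0.023 in the exon 6 clone. In the exon 4 clone it ranged from -0.27 to 0.082, and for the interaction from -0.13 to 0.25. Between clones the range was -0.069 to 0.058, with 0 to 2 members called higher and 0 to 9 lower. Depending on the replicate, 5 to 18 members reversed over both clones, 8 to 18 in the exon 6 clone and 15 to 38 in the exon 4 clone. For the interaction 4 to 29 reversed, and between clones 3 to 18. Among the genes named for their changes, *Rpl36a-ps1* (-1.28 to 0.12) and *Rpl9* (-0.065 to 0.55) reversed in the exon 4 clone. The interaction of *Rpl38* (-1.23 to 0.23) reversed as well. The cause of these differences was not tested.

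With the replicate number as a block 0 members were called in any KO comparison and the median over both clones stayed at -0.086. Over both clones the block lowered the median SE of members from 0.144 to 0.119 and their lowest adjusted p in limma from 0.27 to 0.13. Replicates with the same number deviated from their group means with correlations of 0.48 in the exon 4 and 0.36 in the exon 6 clone over 7550 genes. Both correlations were positive, but each came from 2 pairs. The labels do not say that equal numbers mark pairs, and they were not taken as such.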

Other observations

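Copies of ribosomal protein genes that are not members were also compared between clones: of 231 tested, 3 were called higher and 1 lower by limma with Benjamini-Hochberg adjustment, against 6.84% and 6.71% of all genes. *Rps24-ps3* (log2 0.96, SE 0.23, adjusted p = 0.027), *Gm4149*, a copy of *Rpl37a* (0.66, SE 0.17, adjusted p = 0.039), and *Wdr89* (0.51, SE 0.098, adjusted p = 0.013) were higher in the exon 6 clone, and *Gm14633*, a copy of *Rps23*, was lower (-0.81, SE 0.19, adjusted p = 0.029). *Rps24-ps3* lay at 56.3, 123, 85.4 and 94.8 RPKM in the exon 4 clone and between 144 and 199 RPKM in the exon 6 libraries.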
